A study of Astyanax mexicanus with 6 samples.

Results

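Cohesin is the ring-shaped protein complex that holds sister chromatids together from replication until anaphase, and it also folds interphase chromosomes into loops and serves in the repair of double-strand breaks. The ring is built from SMC1, SMC3 and the kleisin RAD21, a STAG protein sits on RAD21, and NIPBL with its partner MAU2 loads the ring onto DNA. Teleost fish kept duplicate copies of several of these genes, hence the letters a and b in their names. The genes described here are those cohesin subunit and loader genes whose name in the deposited tables matched a list of 10 names, drawn up because *rad21b* has reads in one of the cell lines and almost none in the other. The list found 8 genes among the 27420 listed, namely *rad21b*, *rad21a*, *smc3*, *smc1a*, *smc1al*, *stag1b*, *stag2b* and *nipblb*, while *stag1a* and *nipbla* matched no name. All but *smc1a* passed the filter on low counts, which leaves 7 of the 8. The list was chosen by the read counts of *rad21b* in the lines, so these are given as a description with no test.

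The libraries came from embryonic fibroblast lines of *Astyanax mexicanus*, a fish with river-dwelling surface populations and blind cave populations. The line SEF is from surface fish and the line PEF from Pachón cavefish, both are wild type and received no treatment, and each is represented by 3 libraries of poly(A) RNA, whose values are given below in the order of replicates 1, 2 and 3. Each line was made from embryos of the first day after fertilization, and the study describes the isolation of individual clones and long passaging. The study does not say that libraries of a line came from different animals or clones, so their spread cannot be taken to cover either. Population, clone and time in culture cannot be told apart. The study calls its libraries independent biological replicates without saying how they were made independent, and the p-values measure the spread between libraries of 1 line.

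Reads counted on genes numbered between 33381563 and 42506026 per library. The 14 fibroblast markers found summed to between 8715 and 12244 TPM (a transcript level corrected for length and for library size) in SEF and between 8980 and 15334 TPM in PEF, most of it from collagen and fibronectin genes. *vim*, the fibroblast marker vimentin, had at most 4.14 TPM in a library, and *prrx1b*, a mesenchymal transcription factor, had 182 to 283 TPM in SEF and 14.8 to 29.97 TPM in PEF. *twist1a*, another such factor, went the other way, with 13.8 to 19.06 TPM in SEF and 44.55 to 110.85 TPM in PEF. Of the 14 fibroblast markers, 4 were called higher in PEF and 6 lower, while 63.5% of all tested genes were called. The 9 epithelial markers found summed to between 2181 and 3124 TPM in SEF and between 6044 and 7066 TPM in PEF. Nearly all of it came from keratin genes, while the epithelial adhesion gene *epcam* had at most 3 reads in a library. Of these 9 markers, 5 could be tested and 4 were called, all higher in PEF, to be read against the same 63.5%. Among the 4 were *grhl3* and *cldnb*, at up to 0.59 and 0.77 TPM in a PEF library. Muscle markers summed to between 168 and 249 TPM in SEF and between 18.5 and 29.9 TPM in PEF. Most of this sum was 1 gene, *tnnt3b*, with 149 to 227 TPM in SEF and 18.3 to 28.8 TPM in PEF. *ckma* added 17.1 to 19.1 TPM in SEF. The muscle regulators *myod1* and *myf5* were without reads in SEF, while the regulator *myog* had 13 to 22 reads in SEF and 3 to 10 in PEF. Of the 7 muscle markers found, 4 could be tested, and all 4 were called lower in PEF. The part of such marker differences in the values below was not tested. PEF replicate 1 stood apart in its proliferation genes, as described further on.

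RNA of *rad21b* (ENSAMXG00000020698), the second teleost copy of the kleisin gene, was present in PEF and nearly absent from SEF. The gene had 451, 448 and 393 reads in PEF, against 3, 5 and 0 reads in SEF. A count of 0 allows up to 3 reads in that library. The corresponding levels were 11.9, 9.67 and 8.96 TPM in PEF and 0.09, 0.12 and 0.00 TPM in SEF, so every PEF library lay far above every SEF library. The mean of 10.2 TPM in PEF exceeded 75.1% of all listed genes, and the mean of 0.07 TPM in SEF exceeded 29.5%. With the 1292 PEF reads and the 8 SEF reads pooled and scaled to library size, the ratio was 162.5, with a 95% exact interval of 82.2 to 377 that covers counting error only. The ratio was 277 without SEF replicate 2 and 107 without SEF replicate 3, since the SEF value rests on so few reads. Of the 16670 genes tested, 113 (0.678%) had at most 5 reads in every SEF library and a mean of at least 100 reads in PEF, *rad21b* among them. The limit of 5 reads equals the highest SEF count of *rad21b*, which was chosen for this pattern, so nothing is read from this share.

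*rad21a* (ENSAMXG00000016960), the other copy of the kleisin gene, was strongly expressed in both lines. Its levels were 89.2, 89.1 and 79.99 TPM in SEF and 73.2, 74.5 and 84.0 TPM in PEF. The libraries of the lines overlapped, because PEF replicate 3 lay above SEF replicate 3. The log2 fold change, PEF over SEF, was −0.13 with a 95% interval of −0.39 to 0.13 (edgeR adjusted p = 0.321). A difference was therefore not detected.

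Most of the kleisin RNA in PEF still came from *rad21a*. *rad21b* made up 14.0%, 11.5% and 9.64% of the summed TPM of the 2 genes in PEF, and at most 0.135% in a SEF library. The summed level of both copies was 86.2 ± 5.33 TPM in SEF and 87.4 ± 4.81 TPM in PEF (SD, n = 3 each), and the libraries of the lines overlapped. *rad21b* was highest in PEF replicate 1, where *rad21a* was lowest. The copies are related in sequence, and how the authors' counting treated reads shared between them is not given in the sources used here, so a small part of either value may belong to the other.

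**Figure D1:**
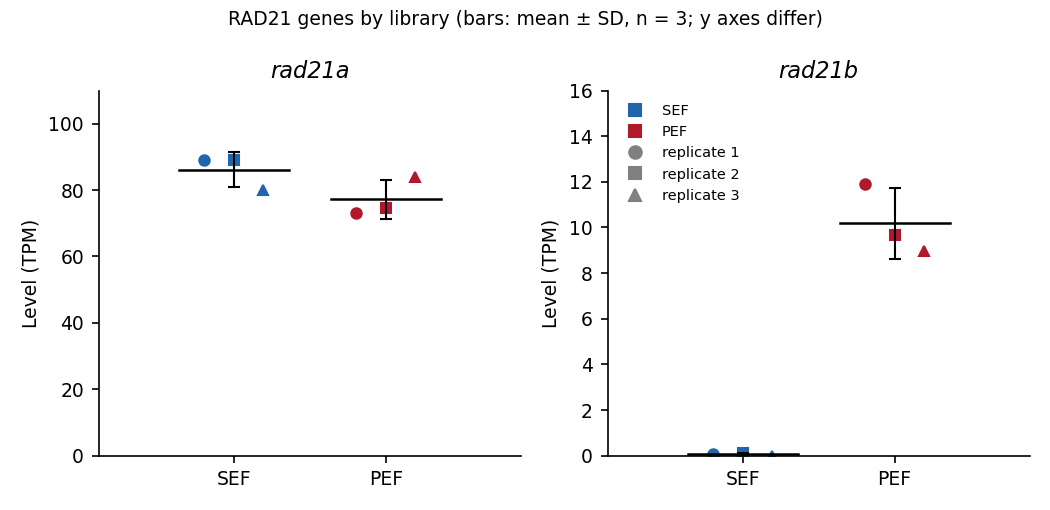
Levels in TPM of *rad21a* (left) and *rad21b* (right) in each library, with SEF in blue, PEF in red, the replicate as marker shape and the mean ± SD (n = 3) in black; the y axes differ. *rad21a* lay between 73.2 and 89.2 TPM in all 6 libraries, while *rad21b* lay between 8.96 and 11.9 TPM in PEF and at or under 0.12 TPM in SEF.

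The genes that flank the RefSeq model of *rad21b* had reads in SEF. In the RefSeq annotation of the assembly AstMex3_surface, which may differ from the build behind the files and is used here for gene order alone, 7 of the 8 symbols were found, all but *smc1al*. Only protein-coding genes with a unique match by symbol were taken, and genes between them without one were passed over. The nearest 5 such genes before *rad21b* were *cyhr1*, *fabp3*, *zcchc17*, *snrnp40* and *nkain1*, and the 5 after it were *trps1*, *eif3hb*, *utp23*, *krit1* and *nup153*. None of these 10 genes had 5 reads or fewer in every SEF library, 3 were higher in PEF, 5 were lower and 2 did not pass the test, while 63.5% of all tested genes were called, 30.4% higher in PEF and 33.1% lower. The model spans so many genes that it may be a merged one, and these flanking genes may then lie far from *rad21b* itself. *trps1*, a GATA-type zinc finger repressor and the first matched gene after the model, had 364 to 424 reads in the SEF libraries and 1330 to 2133 in the PEF libraries (log2 fold change 2.19, edgeR adjusted p = 2.66e-05). *eif3hb*, a translation initiation factor subunit gene and the next matched gene, had 104 to 170 reads in the SEF libraries and 655 to 776 in the PEF libraries (log2 fold change 2.35, edgeR adjusted p = 6.45e-05). Both were picked out after their values were seen. On the other side of the model, *zcchc17* and *fabp3* were lower in PEF (log2 fold changes −1.44 and −1.12, edgeR adjusted p = 0.00057 and 0.0020).

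The model encloses 36 protein-coding genes, of which 21 were matched to the files by symbol. Of these 21, 17 were tested, 3 were higher and 9 lower in PEF, a share of calls to be read against the same 63.5%, and the median log2 fold change was −0.39, against −0.02 over all tested genes. Of the 4 not tested, *matn1*, *si:ch211-199g17.9* and *lrrc14b* had at most 4 reads in any library, in PEF as in SEF. The remaining gene, *klhl43*, had 5 to 20 reads in the SEF libraries and at most 1 in a PEF library. *ahdc1* came closest to the pattern of *rad21b*, with 7 to 10 reads in SEF and 1187 to 2075 in PEF, and was picked out after its values were seen. Whether the annotation behind the files has the same model is not given in the sources used here, and reads of overlapping genes are uncertain unless strand was used in the counting.

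The 5 named genes whose levels over the 6 libraries were most like those of *rad21b*, by Euclidean distance of log2(TPM + 0.1), were *INKA2*, *frem1a*, *sfrp2*, *rab25a* and *cngb3.2*, at distances of 0.873 to 1.19. Their pattern follows from this choice: all 5 had between 7.40 and 15.9 TPM in every PEF library and at most 0.11 TPM in a SEF library. *frem1a* encodes a basement membrane protein and *sfrp2* a secreted Wnt antagonist. None of the 5 is a cohesin gene.

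The SMC subunits form the arms of the ring, and their RNA levels were close in the lines. For SMC1, the reads fell on *smc1al* (ENSAMXG00000020424), with 95.3, 85.9 and 80.5 TPM in SEF and 79.8, 79.2 and 78.5 TPM in PEF. *smc1a* (ENSAMXG00000013136) had 1, 1 and 3 reads in the SEF libraries and 2, 0 and 1 reads in the PEF libraries, at or under the 3 reads that a count of 0 allows. Thus *smc1al* made up at least 99.95% of the SMC1 signal in every library of both lines. RefSeq has the symbol *smc1a* and not *smc1al*, and which of the rows it stands for was not settled. The log2 fold change of *smc1al* was −0.05 with a 95% interval of −0.28 to 0.18 (edgeR adjusted p = 0.663), and no difference was detected.

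*smc3* (ENSAMXG00000004461), the SMC subunit whose acetylation locks the ring in place, tended lower in PEF without passing the test. Its levels were 40.5, 37.0 and 33.6 TPM in SEF and 29.0, 28.2 and 31.2 TPM in PEF. Every PEF library lay below every SEF library, a separation seen in 69.5% of all tested genes. The log2 fold change was −0.23 with a 95% interval of −0.48 to 0.02 (edgeR adjusted p = 0.0979). *smc3* was called under 4 of the alternatives, among them DESeq2 (adjusted p = 0.0466) and limma on log2(TPM + 1) values (adjusted p = 0.0264), and its adjusted p ranged from 0.0259 to 0.229 over all alternatives.

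STAG proteins bind RAD21 and tether cohesin to its partners. Of *stag1b*, *stag2a* and *stag2b*, only *stag2b* was called, higher in PEF, and *stag3* is described further on. *stag2b* (ENSAMXG00000005653) was expressed at 18.2, 17.8 and 16.3 TPM in SEF and at 20.1, 26.4 and 25.9 TPM in PEF. It was higher in every PEF library, by 1.46-fold (log2 fold change 0.54, standard error 0.15, edgeR adjusted p = 0.0149). The call was lost without PEF replicate 2 (log2 fold change 0.45, edgeR adjusted p = 0.0539). Its copy *stag2a* (ENSAMXG00000007550), taken from the list of further cohesin subunits, went the other way, with 12.2, 11.7 and 10.8 TPM in SEF and 8.45, 9.53 and 8.46 TPM in PEF. Its log2 fold change of −0.29 just missed the threshold (edgeR adjusted p = 0.0502) and passed it under 7 alternatives, with an adjusted p between 0.0217 and 0.145 over all of them.

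*stag2b* accounted for 59.9%, 60.3% and 60.2% of the summed TPM of the STAG2 copies in SEF, and for 70.4%, 73.5% and 75.4% in PEF. The difference of 12.9 percentage points gave p = 0.1 by exact permutation, two-sided, the smallest value that 3 libraries against 3 allow. This share was chosen after the levels were seen, and no difference is called from it. *stag1b* (ENSAMXG00000003373), which encodes the other somatic kind of STAG protein, had 8.16 to 11.8 TPM in SEF and 9.59 to 10.03 TPM in PEF, and its log2 fold change of 0.05 had a 95% interval of −0.26 to 0.37 (edgeR adjusted p = 0.739). The summed level of *stag1b*, *stag2a* and *stag2b* was 39.1 ± 3.57 TPM in SEF and 42.8 ± 3.77 TPM in PEF (SD, n = 3 each), with overlapping libraries and an exact permutation p of 0.3. This sum leaves out *stag3*, which had 0.87 to 1.08 TPM in SEF and 3.3 to 9.47 TPM in PEF.

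*nipblb* (ENSAMXG00000006890), a copy of the gene for the cohesin loader, was higher in PEF. It was expressed at 10.4, 9.75 and 8.67 TPM in SEF and at 13.4, 12.1 and 12.0 TPM in PEF, without overlap. The rise was 1.38-fold (log2 fold change 0.46, standard error 0.09, edgeR adjusted p = 0.00374), and leaving out single libraries gave log2 values from 0.40 to 0.51. *nipblb* passed the test under every alternative run.

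**Figure D2:**
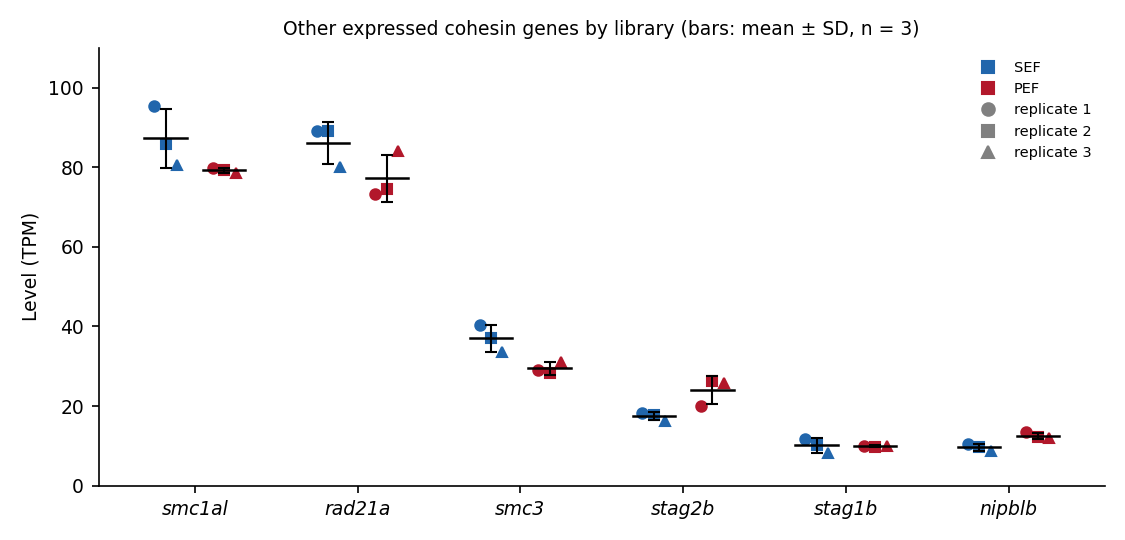
Levels in TPM of the 6 other expressed cohesin genes in each library, with SEF in blue, PEF in red, the replicate as marker shape and the mean ± SD (n = 3) in black. *smc1al* and *rad21a* had the highest levels and *stag1b* and *nipblb* the lowest, and the lines were separated for *smc3*, *stag2b* and *nipblb* and, in TPM, narrowly for *smc1al*. Such a separation in TPM was seen in 69.5% of all tested genes.

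Among the 7 genes other than *rad21b*, 2 of the 6 tested were called, both higher in PEF. Of all 16670 genes tested, 63.5% were called at an edgeR adjusted p under 0.05, made up of 30.4% higher in PEF and 33.1% lower. The median log2 fold change of the 6 genes was 0.00, beside −0.02 over all tested genes. The list was drawn up with this contrast known, and nothing is read from its count. These 6 genes varied little within a line, their highest library exceeding their lowest by at most 1.44-fold in SEF and 1.32-fold in PEF.

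The order of the levels was the same at its top in both lines. *smc1al*, at 87.2 ± 7.46 TPM in SEF and 79.2 ± 0.682 TPM in PEF, and *rad21a*, at 86.1 ± 5.27 and 77.2 ± 5.88 TPM, did not differ beyond their spread (SD, n = 3 each). Both lay above *smc3*, at 37.0 ± 3.44 TPM in SEF and 29.5 ± 1.53 TPM in PEF, and *smc3* lay above *stag2b*, at 17.4 ± 1.02 and 24.1 ± 3.52 TPM (SD, n = 3 each). *stag1b* and *nipblb* overlapped in SEF, while in PEF *nipblb* lay above *stag1b* in every library. *rad21b* in PEF lay among these last genes.

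Relative to *smc3* in the same library, the TPM of *rad21a*, SMC1, the 3 summed STAG genes and *nipblb* was higher in PEF. Single STAG genes and *mau2* were not set against *smc3*. *rad21a* was present at 2.20 to 2.41 times the TPM of *smc3* in SEF and 2.53 to 2.69 times in PEF. The ratio for SMC1 ran from 2.32 to 2.40 in SEF and from 2.52 to 2.81 in PEF, that for the 3 STAG genes from 1.04 to 1.08 and from 1.33 to 1.61, and that for *nipblb* from 0.257 to 0.264 and from 0.385 to 0.464. All 4 ratios separated PEF from SEF, as did the TPM of 69.5% of all tested genes taken singly. Each ratio gave an exact permutation p of 0.1, the smallest value possible with 3 libraries against 3. The ratios share their denominator, so the low *smc3* values of PEF enter all of them. Mean TPM was itself lower in PEF than in SEF for *rad21a* (77.2 against 86.1) and *smc1al* (79.2 against 87.2). Their ratios therefore do not show a higher level of either gene in PEF. It was higher in PEF for the summed STAG genes (42.8 against 39.1, with overlap) and *nipblb* (12.5 against 9.61). With read counts in place of TPM, the difference of the *rad21a* ratio was 0.0550 and the libraries of the lines overlapped. A ratio of reads is not corrected for transcript length, so its size is not comparable with that of a TPM ratio.

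**Figure D3:**
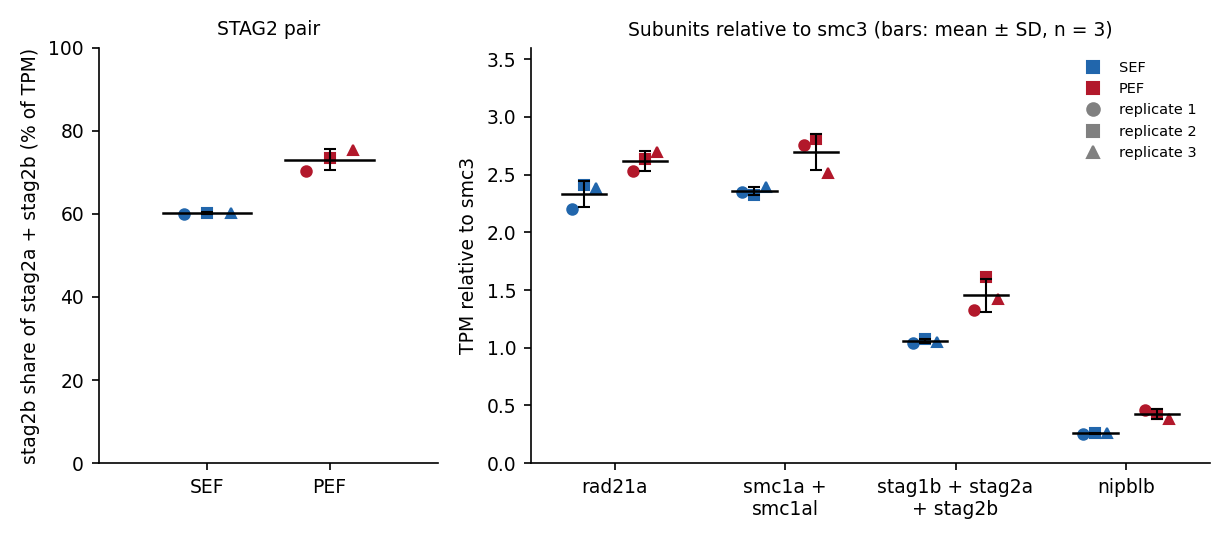
Left, share of *stag2b* in the summed TPM of *stag2a* and *stag2b*, in percent; right, TPM of *rad21a*, SMC1, STAG and *nipblb* relative to *smc3* in the same library. SEF is blue, PEF red, the replicate the marker shape, and bars show the mean ± SD (n = 3); the *stag2b* share was near 60% in SEF and between 70.4% and 75.4% in PEF, and all 4 ratios of TPM were higher in PEF.

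Cohesin subunits of meiosis were at or near 0 except *stag3*. *smc1b*, *rec8b* and *rad21l1*, genes that replace SMC1 and the kleisin in germ cells, had at most 5 reads in any library. *stag3* (ENSAMXG00000009739), known in mammals as the STAG protein of meiosis, was expressed at 1.08, 1.06 and 0.87 TPM in SEF and at 3.3, 6.74 and 9.47 TPM in PEF. All PEF libraries lay above all SEF libraries (log2 fold change 3.04, standard error 0.43, edgeR adjusted p = 0.000726). *stag3* was lowest in PEF replicate 1 and highest in PEF replicate 3, whereas *rad21b* was highest in the former and lowest in the latter. Of the 13 germ cell and meiosis markers found, 11 stayed under 1 TPM in every library, and their summed level was 3.28 to 3.83 TPM in SEF and 1.09 to 1.59 TPM in PEF. The exceptions were *piwil2*, at 2.50 to 2.93 TPM in SEF and at most 0.05 TPM in PEF, and *sycp3*. The germ cell genes *dnd1* and *dazl* had at most 2 reads in a library, and *sycp3*, a gene of the synaptonemal complex, had 1 to 4 reads in a SEF library and 21 to 32 reads in a PEF library. Of the 13 markers, 6 could be tested and all 6 were called, beside 63.5% of all tested genes. *sycp3* was higher in PEF, and the other 5, *piwil2*, *piwil1*, *tdrd7a*, *tdrd1* and *tdrd6*, were lower. Apart from *piwil2*, these lower genes had at most 38 reads in a library.

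Genes that load, release and place cohesin differed in both directions. *mau2*, the partner of the loader, was lower in PEF while *nipblb* was higher, at 11.4, 10.4 and 10.02 TPM in SEF and 7.26, 7.33 and 5.93 TPM in PEF (log2 fold change −0.49, edgeR adjusted p = 0.0109). *waplb*, a copy of the gene for the factor that opens the ring, was also lower in PEF (log2 fold change −0.61, edgeR adjusted p = 0.00442). *pds5b*, whose protein works with that factor and also guards cohesion, was higher by 0.56 (edgeR adjusted p = 0.00252), and the related *pds5a* differed by 0.07 with an interval of −0.13 to 0.28 (edgeR adjusted p = 0.494). *ctcf*, the DNA-binding protein at which extruding cohesin halts, was higher in PEF by 0.38 (edgeR adjusted p = 0.0182), a call that was lost without SEF replicate 2 (0.0819), SEF replicate 3 (0.0545) or PEF replicate 3 (0.0599).

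Both genes named *hdac8*, for the enzyme that removes the acetyl group from SMC3, were lower in PEF. The one with the higher level in SEF (ENSAMXG00000013212) fell from 27.6, 30.3 and 30.4 TPM in SEF to 9.06, 7.81 and 8.2 TPM in PEF (log2 fold change −1.71, edgeR adjusted p = 1.49e-05). The other (ENSAMXG00000011293) was lower by less (log2 fold change −0.54, edgeR adjusted p = 0.00379). Reads could have been split between these genes of the same name.

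The regulators that act in S phase and mitosis were lower in PEF on average, but with a wide spread between PEF libraries. *esco2*, the acetyltransferase that sets cohesion on SMC3, had 15.5, 14.8 and 12.1 TPM in SEF and 2.60, 4.85 and 9.47 TPM in PEF (log2 fold change −1.19, edgeR adjusted p = 0.0455). *cdca5*, or sororin, which shields acetylated cohesin from release, was lower likewise (log2 fold change −1.12, edgeR adjusted p = 0.0398). *pttg1*, or securin, which holds the cohesin-cutting protease in check, had 14.6, 14.5 and 11.6 TPM in SEF and 0.80, 2.61 and 3.95 TPM in PEF (log2 fold change −2.37, edgeR adjusted p = 0.00388). The calls of *esco2* and *cdca5* were each lost when any SEF library or PEF replicate 2 was left out, with adjusted p-values up to 0.128 and 0.115, while that of *pttg1* held throughout the alternatives run. *espl1*, or separase, the protease that cuts RAD21, *plk1*, a mitotic kinase that phosphorylates cohesin, and *sgo1*, which protects it at centromeres, had log2 fold changes of −1.28, −1.05 and −0.67 and did not pass the test (edgeR adjusted p = 0.0538, 0.0986 and 0.263). *espl1* was called under 7 of the alternatives, *plk1* under 4 and *sgo1* under 1. With PEF replicate 1 left out, the log2 fold changes were −0.86, −0.63 and −0.24 for *espl1*, *plk1* and *sgo1*, and of these only *espl1* was called (edgeR adjusted p = 0.0271). With PEF replicate 3 left out they were −1.84, −1.66 and −1.25, all called (edgeR adjusted p = 0.0125, 0.0145 and 0.0427).

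**Figure D4:**
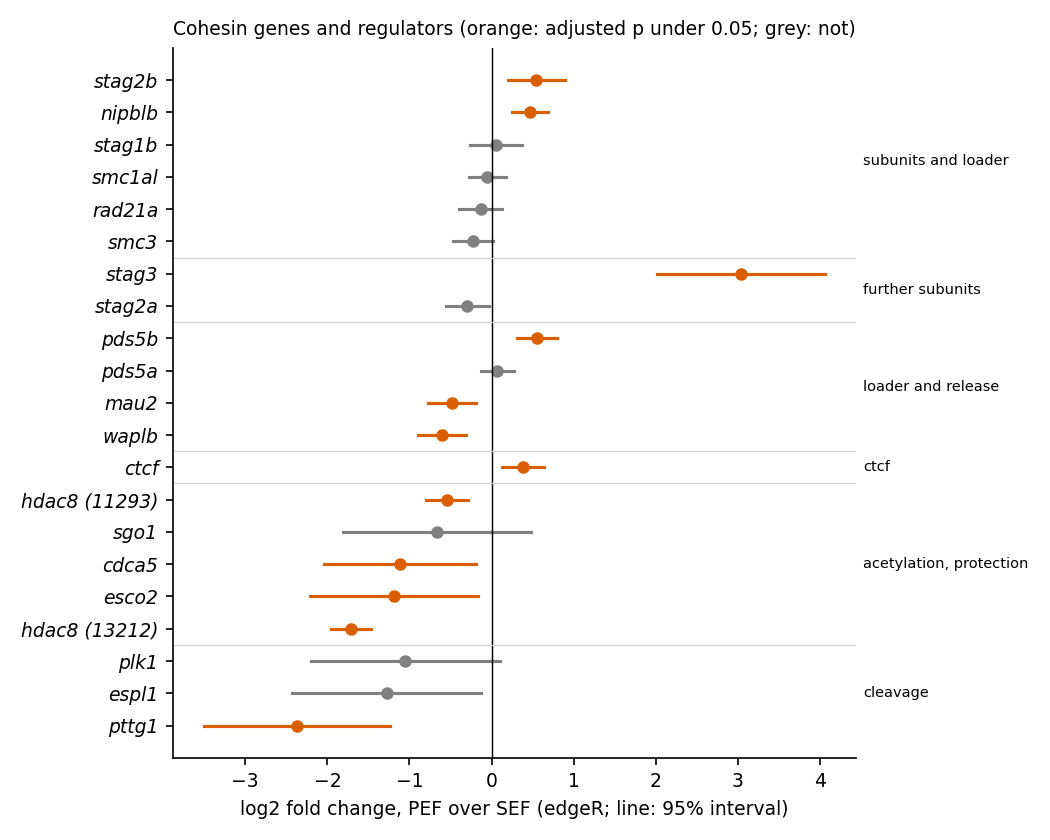
Log2 fold change, PEF over SEF, of the tested cohesin genes other than *rad21b* and of cohesin regulators, from edgeR, with unadjusted 95% intervals; orange marks an adjusted p under 0.05, and the number after *hdac8* is the end of the gene identifier. *stag3* had the highest value plotted, 3.04, and *pttg1* the lowest, −2.37, and the intervals of the mitotic regulators were wide.

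In all, 15 of the 18 regulator and further subunit genes found could be tested, and 10 were called, 3 higher and 7 lower in PEF, with a median log2 fold change of −0.61. That share of calls lies near the 63.5% of all tested genes. Of 30 tested genes when condensin and the SMC5/6 complex are included, 16 were called, 4 higher and 12 lower, and 10 without SEF replicate 2. In condensin, the SMC complex that compacts mitotic chromosomes, 2 of 8 genes were called, *smc4* (log2 fold change −1.71, edgeR adjusted p = 0.000778) and *smc2* (−1.10, edgeR adjusted p = 0.0420). In SMC5/6, an SMC complex of DNA repair, 4 of 7 were called, *nsmce1*, *nsmce2* and *nsmce4a* lower in PEF (log2 fold changes of −2.36, −0.66 and −0.41) and *slf1*, whose protein brings the complex to damage, higher (0.91), with edgeR adjusted p-values of 0.000101 to 0.0457.

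The levels of mitotic regulators varied with those of proliferation genes among the PEF libraries, and the cohesin subunits and loader varied far less. All 15 proliferation genes found were lowest in PEF replicate 1 and highest in PEF replicate 3, and their summed level was 211.1, 381.2 and 589.5 TPM in PEF and between 549.7 and 739.3 TPM in SEF. The same held for all 6 regulators of S phase and mitosis named above, which summed to 12.8, 30.9 and 55.0 TPM in PEF and to between 71.1 and 88.6 TPM in SEF. For the 6 expressed cohesin genes other than *rad21b* the sums were 225.5, 230.1 and 241.5 TPM in PEF. Of these 6 genes, 2 were lowest in PEF replicate 1 and 3 highest in PEF replicate 3. Over the 12035 tested genes with at least 1 TPM in both lines, 3774 were lowest in PEF replicate 1 and 3567 highest in PEF replicate 3. The part of this difference between PEF libraries in the regulators' values was not tested. In bulk RNA, fewer dividing cells and less RNA per cell cannot be told apart.

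Within PEF, the highest library exceeded the lowest by a median of 4.51-fold for the 6 mitotic regulators, 3.28-fold for the proliferation genes and 3.76-fold for condensin, but by 1.11-fold for the 6 cohesin genes. The median over the 12035 tested genes with at least 1 TPM in both lines was 1.25-fold. Within SEF, the medians were 1.26-fold for the mitotic regulators, 1.43-fold for the proliferation genes and 1.19-fold for the cohesin genes. Of the 15 proliferation genes, 2 were called between the lines, against 63.5% of all tested genes, *cdc20* (log2 fold change −1.44, edgeR adjusted p = 0.0270) and *aurka* (−1.28, edgeR adjusted p = 0.0193). Without PEF replicate 1, the calls of *nipblb* and *stag2b* held, and the count over the cohesin genes stayed at 2.

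**Figure D5:**
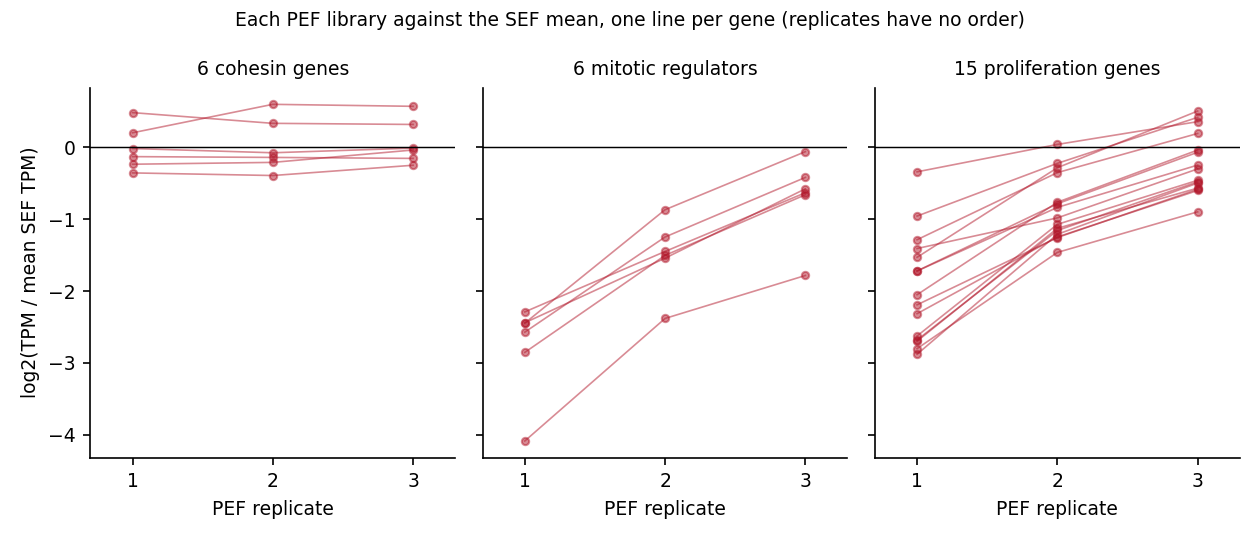
Level of each gene in each PEF library relative to its SEF mean, as log2 of the TPM ratio, for the 6 expressed cohesin genes other than *rad21b*, the 6 regulators of S phase and mitosis, and the 15 proliferation genes; a line joins the libraries of a gene, and the replicates have no order. Mitotic regulators and proliferation genes were lowest in PEF replicate 1 and highest in PEF replicate 3, whereas the cohesin genes differed little between the PEF libraries.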

How the data were processed

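RNA of the SEF and PEF lines was sequenced from stranded mRNA libraries on an Illumina NextSeq. The authors deposited read counts per Ensembl gene from STAR 2.7.3a, not normalized, and TPM values from RSEM, rounded to 2 decimals. The genome build, annotation and strand setting of these libraries are not given in the sources used here. Rows of reads assigned to no gene (38.8% to 41.1% of a library) were left out.

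Counts of PEF were compared with SEF in R 4.3.3 with edgeR 4.0.16 (TMM, filterByExpr, quasi-likelihood test, Benjamini-Hochberg adjustment over 16670 genes, adjusted p under 0.05). Intervals are 95%, and standard errors came from the F statistic. Shares and ratios of TPM were compared by two-sided exact permutation tests. Named were all members, cohesin regulators with at least 10 reads in a library, called genes of 3 further lists, and neighbors and nearest profiles of *rad21b*. Members and lists were chosen with earlier results of these data known. Alternatives were DESeq2 1.42.0, upper-quartile factors, other filters, limma 3.58.1 on log2(TPM + 1) or log2(TPM + 0.1), a replicate block and leaving out each library. The test was also run on simulated counts in which few genes differed, unlike here, so that run does not cover these data. Gene order came from RefSeq.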

Additional observations from a re-analysis of the deposited data

How the results depend on the processing

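Across 388 recomputed values, 344 were labeled as kept, by a rule that differed with the kind of value. Fold changes had to keep their direction and their side of the threshold. Shares and ratios without *rad21b* had only to keep the sign of their difference, whatever its size. Counts of calls had to stay near the main count, and *rad21b* values within their spread or counting interval. Of the rest, 23 passed the threshold only under an alternative, 12 missed it only there, 4 moved beyond these limits and 5 changed sign. The count of cohesin genes called was 1 to 2 when each library was left out and 2 or 3 under the other alternatives. The count over regulators and SMC complexes was 10 to 20 with a library left out, and that over all genes 9289 to 10968. The changes of sign were those of *stag1b*, at −0.0108 with at least 10 reads in every library, −0.0165 with limma on log2(TPM + 1), −0.0167 on log2(TPM + 0.1) and −0.0762 to 0.1647 with a library left out, and of *smc1al*, at −0.1001 to 0.0003 with a library left out (lowest for *stag1b* without SEF replicate 3, highest for *smc1al* without SEF replicate 1). None of these values passed the test under any setting. With counts in place of TPM, the *rad21b* share differed by 8.94 percentage points and summed RAD21 over *smc3* by 0.150. This swaps both the length correction and the counting tool, and the cause was not tested. Ratios of reads and of TPM lie on different scales, so the sizes of their differences cannot be compared directly. In TPM, with each library left out, the differences were 10.5 to 12.7 points for the *rad21b* share and 0.571 to 0.675 for summed RAD21 over *smc3*.

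Same-numbered libraries of the lines did not deviate together (correlations of −0.041, 0.073 and −0.135 for replicates 1, 2 and 3), and those of other pairs ran from −0.151 to 0.147. No pairing by number was seen, but 3 libraries per line cannot exclude one. With the replicate number as a block, 9735 genes were called, 2 of them cohesin genes and 14 regulators and SMC complex genes. Shares of *stag1a* and *nipbla* in their pairs were not run, as no row carries these names. The few SEF reads of *rad21b* limit the precision of its ratio.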
